A study of Mus musculus with 5 samples.

Results

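Interferon-stimulated genes are the genes that cells switch on after an interferon binds its receptor. Type I interferons signal through Ifnar1 and Ifnar2 to a transcription factor complex that contains Irf9 and binds interferon-stimulated response elements. Interferon gamma signals through Ifngr1 and Ifngr2 to factors that bind gamma-activated sites, and it drives the guanylate-binding proteins and immunity-related GTPases most strongly in macrophages. The genes were taken by name from a list of 46. Of these, 45 had a row in the count table of 18767 genes, and Mx1 was not analysed here.

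The cells were CD45+ leukocytes sorted from the thyroids of NOD.WT mice, an inbred strain prone to autoimmunity. Male and female mice aged 4 to 6 weeks were injected for 4 weeks, 2 times each week, with antibodies against the checkpoint receptors PD-1 (clone RPM1-14) and CTLA-4 (clone 9D9) at 10 mg/kg for each dose, called immune checkpoint inhibition (ICI) below. Control mice received isotype antibodies on the same schedule. Cells were pooled from 16 ICI mice into 4 single-cell libraries (ICI 1 to ICI 4) and from 10 control mice into 1 library (isotype), and the number of mice behind each library is not given, so the spread between ICI libraries may be partly technical. The question the design poses for these genes is where in the infiltrate they were expressed, and how their levels compared between ICI and isotype.

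The 5 libraries held 1163 to 5018 cells and 3858251 to 32296759 unique molecular identifiers (UMIs, each standing for 1 captured transcript). Levels are given as CPM, the UMIs of a gene per 1000000 UMIs of the same cells in the same library; they are not scaled by gene length. The libraries fell into 2 sets that do not follow the treatment. ICI 1 to 3 held 614 to 2563 UMIs of Xist, an RNA of female cells, and none of the globin gene Hbb-bs. By contrast, ICI 4 and isotype held 4 and 0 UMIs of Xist and 26385 and 3218 of Hbb-bs. Sex may thus differ between the 2 sets, and its part in the comparisons of ICI with isotype was not tested. ICI 2 and ICI 3 shared 140 cell barcodes, against at most 12 for any other pair, so they may not be fully separate samples. Without the lower copies of shared barcodes the members' median log2 fold change was 0.39 over all cells, -0.66 in cluster 0 and 0.85 in cluster 7, against 0.40, -0.67 and 0.85 with them. The authors' 17 clusters were used as deposited and named from marker lists. Clusters 3, 9, 12, 13 and 15 were left unnamed and are called by number, although some matched a list. Cluster 15 had 10 of 10 plasmacytoid dendritic cell markers at 1.5-fold or more, and cluster 12 had 9 of 10 cycling markers. Clusters 2 and 11 were named on 5 and 10 of 12 thymocyte markers.

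The promoters show the DNA elements through which these genes are known to respond. For 36 of the 46 genes the 250 bases before the transcription start were available (RefSeq, GRCm38.p6), and each was searched on both strands for the core of the interferon-stimulated response element, GAAA repeated after a gap of any 2 bases, and for the gamma-activated site, TTCNNNGAA; a stretch could match both. The GAAA repeat occurred in 17 of the 36 (47.2%), against 936 of 27025 genes (3.46%). TTCNNNGAA occurred in 9 of the 36 (25%), against 2197 of all genes (8.13%). By role, the GAAA repeat was present in 9 of 19 antiviral effectors, 6 of 7 GTPases, 2 of 4 Schlafen genes and 0 of 3 interferon regulatory factors. A match is a description of the letters and shows no binding. The 150 bases before the start follow for 5 genes to which the results return, 5′ to 3′ on the gene's strand. Bases of matches that lie wholly within these 150 are in capitals. TTTC repeated in the same way is the repeat on the other strand. Ifit3 carried 2 such repeats in the 250 bases searched. The repeat farther from the start begins before the printed bases, so its end, the opening tttc, is in lower case. Isg15 lies at chr4:156200819-156200968, Ifit3 at chr19:34583379-34583528, Bst2 at chr8:71537473-71537622, Gbp2 at chr3:142620513-142620662 and the first of 2 Irf1 starts at chr11:53769864-53770013.
Isg15: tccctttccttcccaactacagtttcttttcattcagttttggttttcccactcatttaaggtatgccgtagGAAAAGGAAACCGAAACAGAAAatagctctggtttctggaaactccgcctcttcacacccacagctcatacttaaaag
Ifit3: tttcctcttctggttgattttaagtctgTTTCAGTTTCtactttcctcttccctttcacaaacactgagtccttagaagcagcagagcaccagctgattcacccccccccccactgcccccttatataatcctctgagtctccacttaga
Bst2: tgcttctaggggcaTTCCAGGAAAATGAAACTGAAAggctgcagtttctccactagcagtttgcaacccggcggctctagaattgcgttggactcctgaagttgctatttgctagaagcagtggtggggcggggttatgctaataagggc
Gbp2: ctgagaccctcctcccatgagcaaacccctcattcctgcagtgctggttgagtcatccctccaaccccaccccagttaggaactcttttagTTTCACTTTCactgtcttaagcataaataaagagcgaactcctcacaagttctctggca
Irf1: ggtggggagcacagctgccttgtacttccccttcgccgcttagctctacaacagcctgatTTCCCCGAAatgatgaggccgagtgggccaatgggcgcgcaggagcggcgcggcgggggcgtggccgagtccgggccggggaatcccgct
Isg15 carried 3 overlapping copies of the GAAA repeat. Bst2 carried 2, overlapping a TTCNNNGAA. Irf1 carried a TTCNNNGAA alone.

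The genes were not expressed most highly in 1 cell type. Over the 14 clusters in which at least 2 ICI libraries had 20 or more cells, the mean level over ICI libraries peaked in regulatory T-like cluster 4 for 10 genes, in CD4 T-like cluster 0 for 9, in cluster 13 for 9, in macrophage-like cluster 7 for 8 and in cluster 3 for 6. Irf7 peaked in natural killer-like cluster 8, Gbp4 in thymocyte-like cluster 11 and Oasl1 in B-like cluster 14. Among all 11735 genes with at least 10 CPM in some cluster, cluster 0 held the peak of 0.631%, cluster 3 of 1.74%, cluster 4 of 4.29%, cluster 7 of 9.91% and cluster 13 of 21.4%. The name of cluster 0 rests on 7 of 8 CD4 T-cell markers at 1.5-fold or more, and Slfn1 and Ifit1 were among its own 10 leading genes, so these levels are a description of clusters built on the same genes. Cells of cluster 13 had a median of 847.5 UMIs, the fewest of any cluster. With the counts of the ICI libraries pooled, 30 of the 45 genes kept their peak cluster and 12 peaked in cluster 0. Without cells holding both T-cell and myeloid UMIs, 36 kept it and 6 peaked in cluster 0.

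**Figure D1:**
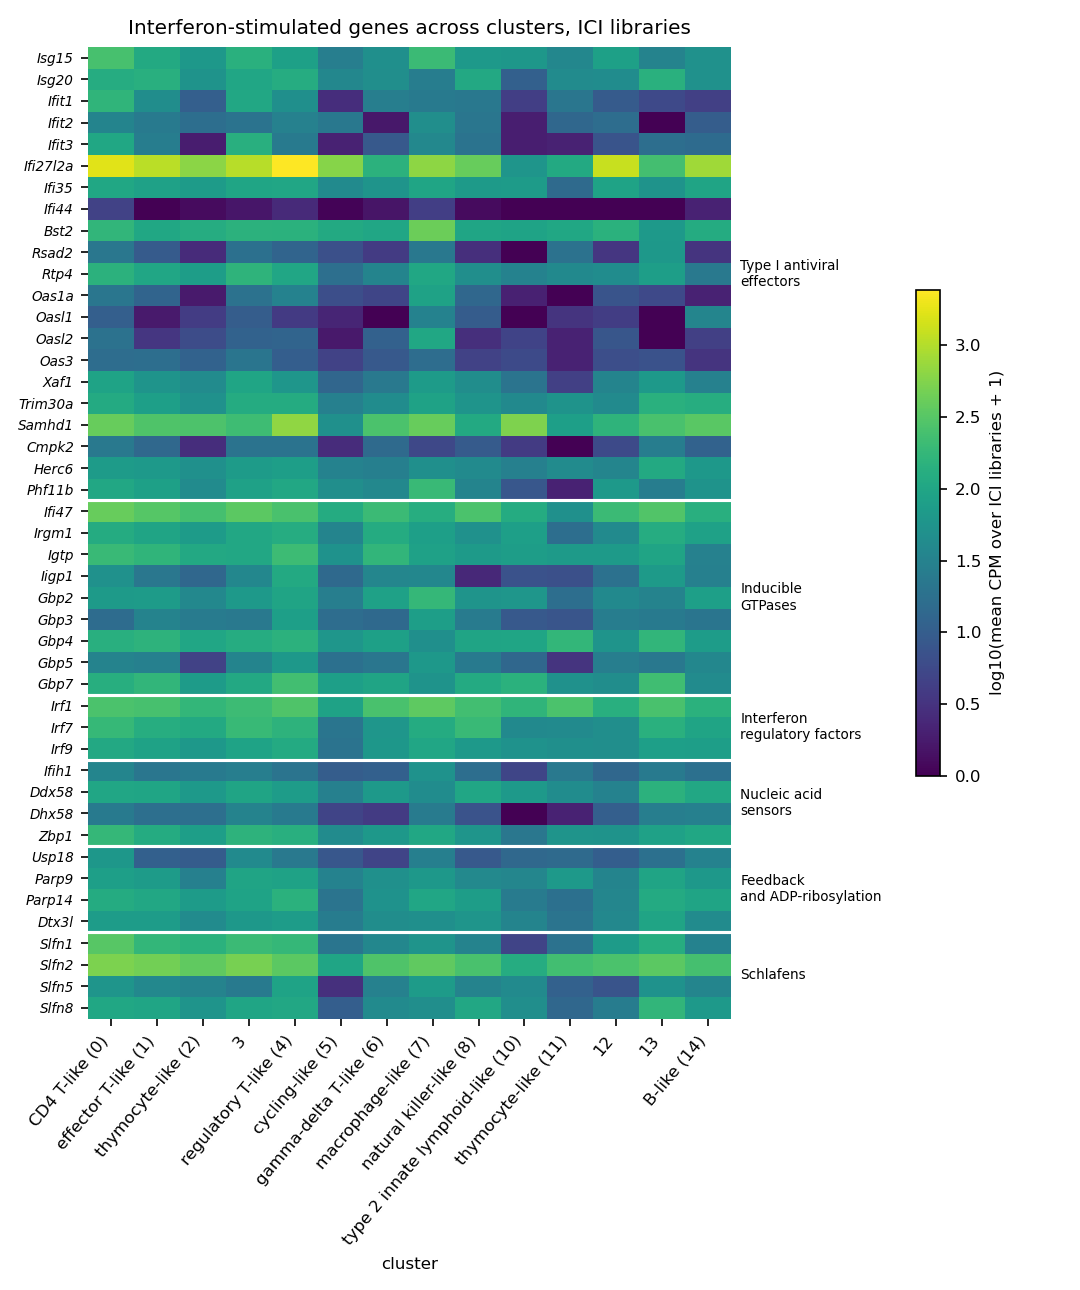
Mean level of each interferon-stimulated gene over the ICI libraries (log10 of mean CPM plus 1, colour scale) in the 14 clusters described, with genes as rows ordered by role and clusters as columns. High levels are spread over several columns: 10 genes peak in cluster 4, 9 in cluster 0, 9 in cluster 13 and 8 in cluster 7.

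The antiviral effectors peaked in several clusters, also within a gene family. Isg15, a ubiquitin-like protein conjugated to other proteins, was highest in cluster 0 at 250.3 ± 90.3 CPM (SD, n = 4 ICI libraries), as were Ifit1, which binds foreign RNA (164 ± 70.8), Ifi35 (102 ± 24.5) and the barely detected Ifi44 (3.63 ± 4.48). The tetherin Bst2, which holds budding virus at the cell surface, was highest in macrophage-like cluster 7 at 423 ± 51.2 CPM, above 168 ± 44.8 in cluster 0, the next in order. Oas1a, a sensor that makes the activator of RNase L, and its relative Oasl2 also peaked there, at 89.6 ± 24.7 and 102 ± 29.1 CPM, with next values of 30.9 and 18.0. Bst2, Oas1a and Oasl2 were the 3 genes of 45 whose ICI libraries in the peak cluster all lay above all those of the next cluster, against 12.7% of the 11735 genes. Ifit2 (45.8 ± 26.9) and Phf11b (196 ± 75.7) completed the effectors highest in cluster 7. Ifit3 (135 ± 134), Rtp4 (156 ± 47.9), Oas3 (19.6 ± 6.51) and Xaf1 (97.7 ± 35.5) were highest in cluster 3. Ifi27l2a, a small mitochondrial protein gene and the most abundant of the 45, reached 2435 ± 623 CPM in cluster 4, where the dNTP hydrolase Samhd1 also peaked at 676 ± 154. The nuclease Isg20, Rsad2 (viperin), Trim30a, the kinase Cmpk2 and the ligase Herc6 had their highest means in cluster 13, with SDs large beside the mean (Rsad2 62.3 ± 79.7 CPM, Trim30a 140.4 ± 59.8, n = 3). The UMIs of Ifit3, Oas1a, Phf11b, Trim30a and the Schlafens can be shared with near-identical neighbours, so their split between copies is uncertain.

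The inducible GTPases and the regulators followed other orders. Igtp, Iigp1, Gbp3, Gbp5 and Gbp7, which attack vacuoles that hold microbes, peaked in regulatory T-like cluster 4, where Igtp reached 211 ± 20.8 CPM and Gbp7 232 ± 71.3. Gbp2 peaked in cluster 7 (179 ± 82.4), Ifi47 in cluster 0 (395 ± 98.9) and Irgm1 in cluster 13. Of the transcription factors, Irf1, an early target of interferon gamma, peaked in cluster 7 (354 ± 124) and Irf9 in cluster 4 (116 ± 41.1). Of the sensors of foreign nucleic acid, Ifih1 (MDA5) peaked in cluster 7, Dhx58 (LGP2) in cluster 3, Ddx58 (RIG-I) in cluster 13 and Zbp1, which binds Z-form nucleic acid, in cluster 0. Usp18, the protease that removes Isg15 and dampens the receptor, peaked in cluster 0, and the ADP-ribosyltransferases Parp9 and Parp14 and their partner Dtx3l in clusters 3, 4 and 13. Slfn1 (319 ± 110) and Slfn2 (514 ± 80.5), which are linked to T-cell quiescence, peaked in cluster 0, Slfn5 in cluster 4 and Slfn8 in cluster 13. In the isotype library 34 of the 45 genes peaked in cluster 0, 9 in cluster 4 and 2 in cluster 1. Across the 14 clusters the gene most like Isg15 was Oasl2 (r = 0.80 across clusters of the same libraries), followed by Rtp4, Oas3, Ifit1 and Ifit3 (0.74 to 0.76), and the least alike was Gbp4 (-0.05).

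Over all cells no gene passed the test. The 9 GTPases lay above isotype, and the type I core genes lay on both sides of it. Each ICI library was above isotype for 24 of the 45 genes, against 27.3% of all 12659 genes tested, and below it for 4, Isg15, Ifit1, Usp18 and Ifi44, against 19.1%. The log2 fold change, ICI over isotype, was positive for 33 of 45 (51.1% of all genes) with a median of 0.40, against 0.02 over all genes. By edgeR's quasi-likelihood test, 0 of 45 passed an adjusted p of 0.05, as did 0% of all genes, and the smallest adjusted p of a member was 0.817. One gene, Gbp3, had an unadjusted p under 0.05, and DESeq2 called none. With 1 isotype library the test assumes that isotype libraries vary as ICI libraries do.

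All 9 GTPases exceeded isotype in each of the 4 ICI libraries (median log2 fold change 0.61). Gbp3, a guanylate-binding protein, stood at 21.4, 35.2, 29.0 and 23.3 CPM in ICI 1 to 4 and at 11.9 in isotype (log2 fold change 1.09, SE 0.39, edgeR unadjusted p = 0.0339). Ifi47, an immunity-related GTPase, stood at 275, 273, 265 and 124 CPM against 115. Its 3 high libraries were ICI 1 to 3, and ICI 4 lay close to isotype. Gbp7 stood at 106, 142, 125 and 59.8 CPM against 47.5, and Gbp4 at 106, 119.7, 95.7 and 72.9 against 68.1. Igtp stood at 111, 147, 132 and 104 CPM against 76.4, and Gbp2 at 47.8, 88.4, 71.9 and 60.9 against 43.7. For each of these genes the lowest ICI library still lay above isotype. The sum of the 9 GTPases was 817, 973, 869 and 552 CPM against 445.

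The type I core genes did not share that order: of 12 tested, 6 had a positive fold change, 4 lay below isotype in every ICI library and 1, Oas3, lay above it in every one. Isg15 stood at 68.8, 93.6, 69.9 and 161 CPM in ICI 1 to 4 and at 188 in isotype, with a log2 fold change of -1.01 (SE 0.56). ICI 4 again lay nearest to isotype. For 26 of the 45 genes the ICI 4 level was closer to isotype than to the mean of ICI 1 to 3. The share over all genes was not computed. Ifit1 stood at 29.1, 40.2, 42.7 and 47.1 CPM against 54.9, and Usp18 at 21.7, 19.4, 18.5 and 23.1 against 25. Ifi44 stood at 0.903, 3.11, 0 and 2.79 CPM against 3.94, and Oasl1 at 3.39, 3.89, 1.14 and 16.4 against 13.5. Ifit3 was higher than isotype in 3 of the 4 ICI libraries, at 11.1, 39.9, 38.6 and 26.4 CPM against 13.7. Ifi27l2a, at 642, 784, 803 and 1137 CPM against 702, and Bst2, at 174, 207, 175 and 168 against 170.4, had ICI libraries on both sides of isotype. Phf11b, a PHD-finger protein gene, stood at 72.9, 110.4, 105 and 34.8 CPM against 33.5 (log2 fold change 1.15, SE 0.66). The 12 type I core genes present (Isg15, Ifit1, Ifit2, Ifit3, Rsad2, Usp18, Oasl1, Oasl2, Oas3, Cmpk2, Ifi44 and Rtp4) summed to 260.2, 393, 332 and 411 CPM against 424, so isotype was the highest of the 5 libraries by a margin smaller than the ICI range.

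The 3 interferon regulatory factors were above isotype in every ICI library. Irf1 stood at 198, 277, 218 and 202 CPM against 175. Irf7, the amplifier of type I interferon production, stood at 83.1, 128, 95.4 and 115 CPM against 81.5. Of the abundant remaining genes, Slfn1, at 121, 93.0, 94.1 and 138 CPM against 75.6, was above isotype in every ICI library. Slfn2, at 288, 343, 359 and 268 CPM against 342, and Samhd1, at 297, 287, 218 and 318 against 266, had libraries on both sides.

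**Figure D2:**
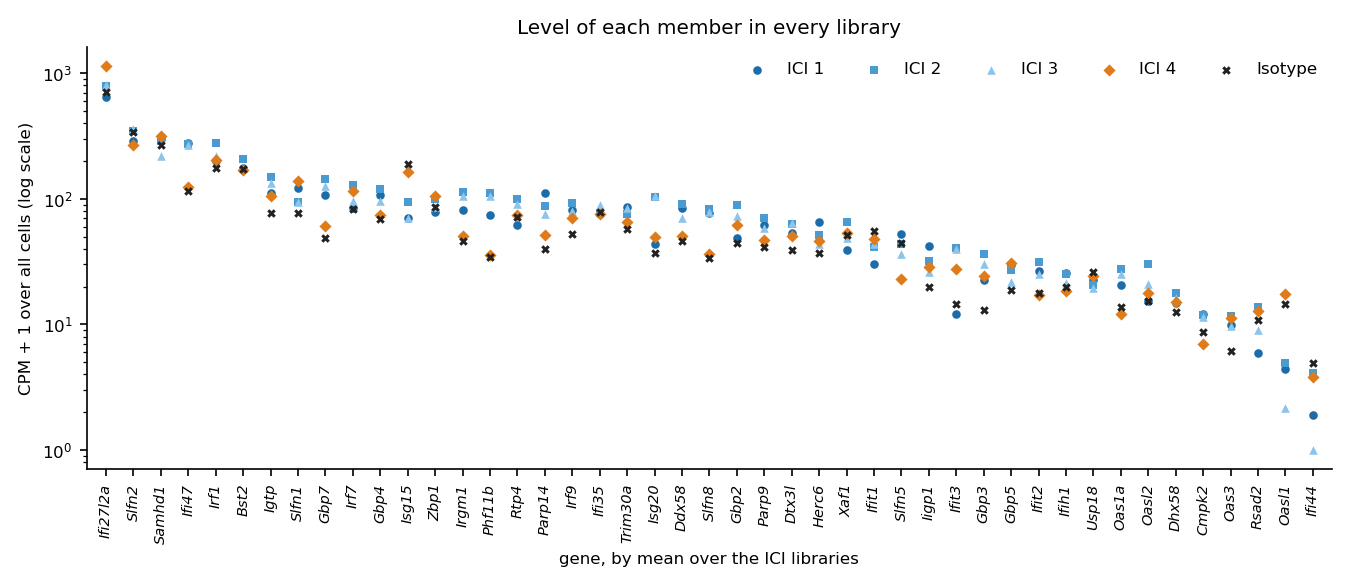
Level of each interferon-stimulated gene over all cells in the 4 ICI libraries and the isotype library (CPM plus 1 on a log axis), 1 point per library, with genes ordered by their mean over ICI libraries. The 9 GTPases sit above isotype in all 4 ICI libraries, whereas Isg15, Ifit1, Usp18 and Ifi44 sit below it in all 4.

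These sums mix cell types whose shares differed between libraries, and the median shift of the members depended on that mix. Weighting the clusters alike gave a median log2 difference of -0.05 with 18 of 45 genes positive. The GTPases were then above isotype in every ICI library for 2 of 9, Gbp7 (0.81) and Gbp2 (0.35), and 7 of 9 had a positive difference, with Gbp5 at -0.19 and Iigp1 at -0.24. Leaving out thymocyte-like and cycling-like clusters 2, 5 and 11 gave 0.12 with 27 positive. A term for the library set, ICI 1 to 3 against ICI 4 and isotype, gave a median treatment effect of 0.20; the set itself had an unadjusted p under 0.05 for 12 of the 45 genes, against 27.1% of all genes. Comparisons within clusters hold the authors' cluster number fixed, although marker levels within a cluster still differed between libraries. For these comparisons 12 clusters had enough cells.

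**Figure D3:**
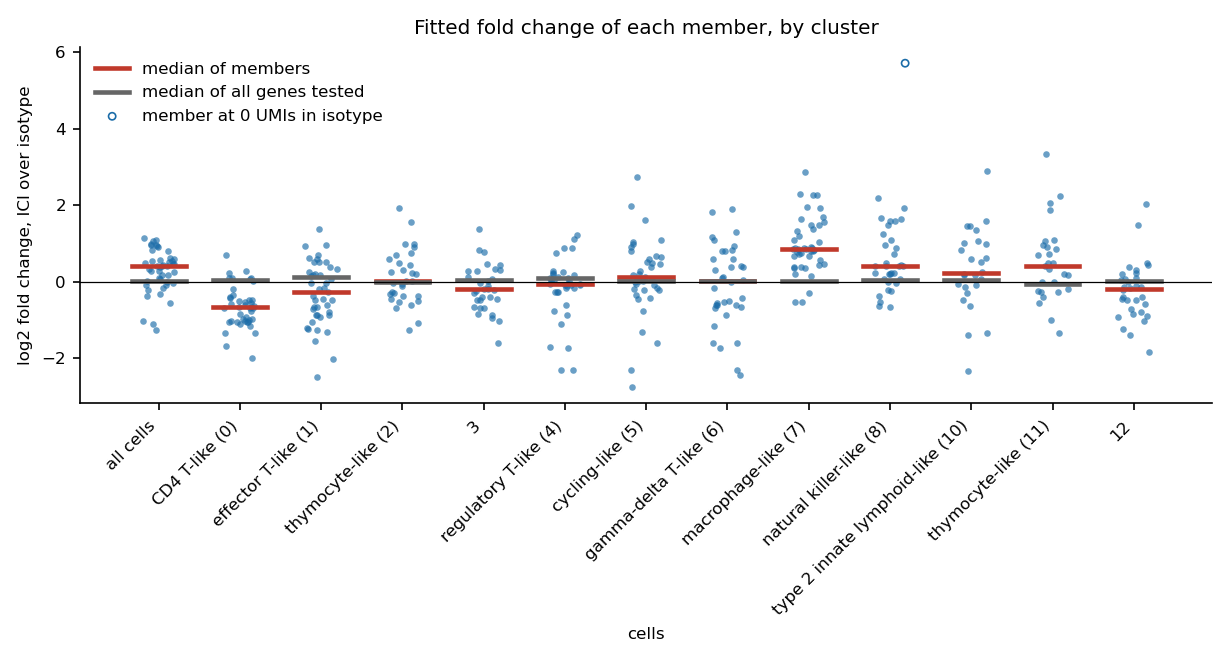
Log2 fold change, ICI over isotype, of the interferon-stimulated genes tested over all cells and in each of the 12 fitted clusters, 1 point per gene, with open circles for genes at 0 UMIs in isotype, a red line at the members' median and a grey line at the median of all genes tested. The red line lies lowest in cluster 0, at -0.67, and highest in cluster 7, at 0.85.

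In CD4 T-like cluster 0 most of the genes were lower in every ICI library than in isotype. Of 43 tested, 30 had all 4 ICI libraries below isotype, against 20.8% of all genes, and 1, Ifit2, had all 4 above, against 26.3%. The fold change was negative for 35 and positive for 8 (53.5% of all genes were positive), with a median of -0.67 against 0.05. None passed the edgeR test (0% of all genes did, smallest adjusted p 0.864), and 6 had an unadjusted p under 0.05 (3.75% of all genes). All 4 nucleic acid sensors and all 3 interferon regulatory factors were below isotype in every ICI library, as were 13 of 19 effectors, 5 of 9 GTPases, 3 of 4 Schlafens and 2 of 4 feedback genes. The cluster held 315, 133, 105 and 885 ICI cells and 119 isotype cells.

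Isg15 in cluster 0 stood at 128, 238, 327 and 308 CPM in ICI 1 to 4 and at 530.5 in isotype (log2 fold change -1.16, SE 0.49). Bst2 stood at 114, 149.6, 202 and 208 CPM against 333, and Slfn5 at 60.4, 42.7, 73.6 and 51.4 against 137. In each of these the highest ICI library was well under isotype, and Slfn5 had the smallest unadjusted p among the named genes (edgeR, 0.00717, log2 fold change -1.34). Irf1 stood at 190.4, 278, 185 and 415 CPM against 526, Irf7 at 98.7, 203, 215 and 212 against 248, and Gbp2 at 37.2, 72.1, 54.5 and 112 against 135. Here the highest ICI library came near isotype. The oligoadenylate synthetase-like genes split by library set: Oasl1 stood at 2.32, 2.67, 0 and 33.9 CPM against 52.0, and Oasl2 at 13.9, 5.34, 5.45 and 47.1 against 68.6. Slfn2 stood at 406, 499.6, 581 and 571 CPM against 697, and Ifi27l2a at 1064, 1560.2, 1742 and 2458 against 2525. Ifit3 was the exception among the genes followed throughout, at 19.7, 98.8, 205 and 92.8 CPM against 89.5, on both sides of isotype.

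Other markers moved with the library in cluster 0, as did those that name it. The summed CD4 T-cell markers were 3683, 1683, 1440 and 5859 CPM in ICI 1 to 4 and 5288 in isotype. The summed thymocyte markers were 1241, 671, 652 and 1457 CPM in ICI 1 to 4 and 2145 in isotype, and plasmacytoid dendritic cell markers were 18.6, 77.5, 70.9 and 44.2 CPM against 245. Effector T-cell markers were 195, 4205, 5031 and 82.4 CPM against 358. Dissociation and stress genes were 3502, 4055, 3523 and 5345 CPM against 6351, and over all cells 4835, 7202, 6636 and 7375 against 9892. The part of these markers in the lower levels of the interferon-stimulated genes was not tested.

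The share of single cells with at least 3 type I core genes was lower in each ICI library than in isotype, which did not hold under every setting. To level the depth, 1000 UMIs were drawn from each cell (596 of 8923 ICI and 21 of 1352 isotype cells held fewer and were dropped), and a cell was counted when at least 3 of the 12 core genes had a UMI. Over all cells ICI 1 had a share of 1.64% (20 of 1220), ICI 2 of 2.50% (28 of 1118), ICI 3 of 1.79% (18 of 1004) and ICI 4 of 3.09% (154 of 4985), and isotype had 3.83% (51 of 1331, exact binomial 95% interval 2.87 to 5.01%, counting error only). The 4 ICI libraries averaged 2.26 ± 0.67%, lower by 1.58 percentage points, with an exact two-sided permutation p of 0.2, the smallest that 4 libraries against 1 allow. With at least 2 genes the difference was -1.86 points, with at least 4 genes -0.21, and without thinning -6.26, and in each of these 1 ICI library lay above isotype (exact permutation p = 0.6). In cluster 0 the share was 3.86%, 9.09%, 9.71% and 7.81% against 21.0% (25 of 119, interval 14.1 to 29.4%). Without thinning these shares were 8.89%, 18.8%, 19% and 25.9% against 48.7%. Cluster 0 held 42.9 to 55.6% of such cells in the ICI libraries and 49.0% in isotype, while it made up 10.3 to 23.4% of ICI cells and 8.94% of isotype cells thinned.

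**Figure D4:**
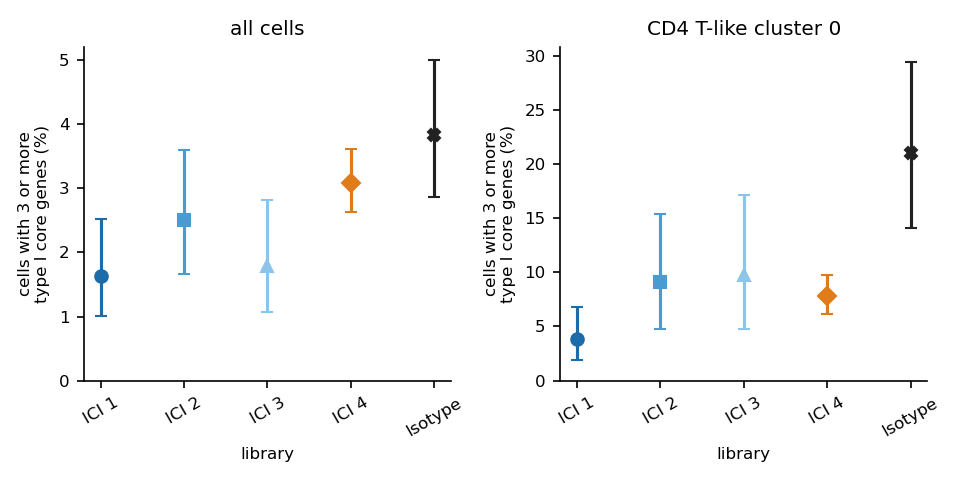
Percent of cells with at least 3 of 12 type I core genes after thinning to 1000 UMIs, in all cells and in cluster 0, 1 point per library with 95% exact binomial intervals. Isotype is the highest library in both sets, at 3.83% of all cells and 21.0% of cluster 0 cells.

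Macrophage-like cluster 7 showed the opposite order. Of 43 genes tested, 26 had every ICI library above isotype, against 19.6% of all genes, and none had every ICI library below, against 23.6%. The fold change was positive for 40 (51.1% of all genes) with a median of 0.85 against 0.02. None passed the edgeR test at an adjusted p of 0.05 (0% of all genes), 14 had an unadjusted p under 0.05 (8.51% of all genes), and DESeq2 called 3 as higher in ICI, Gbp3, Oasl2 and Bst2 (0.256% of all genes). Without ICI 4, edgeR called 7 as higher (3.18% of all genes), Bst2, Gbp3, Oasl2, Oas1a, Irgm1, Irf9 and Phf11b. The cluster held 104, 181, 162 and 45 ICI cells and 129 isotype cells. Median UMIs per cell there were 3403, 3403, 3471.5 and 8726 in ICI 1 to 4 and 9932 in isotype.

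Bst2 in cluster 7 stood at 458, 461, 422 and 351 CPM in ICI 1 to 4 and at 168 in isotype (log2 fold change 1.33, SE 0.36, edgeR adjusted p = 0.475). Gbp3 stood at 64.1, 101, 68.2 and 77.4 CPM against 20.1 (1.94, SE 0.41, edgeR adjusted p = 0.414), and Oasl2 at 77.3, 142, 107 and 83.3 against 21.4 (2.25, SE 0.49, edgeR adjusted p = 0.414). In each the lowest ICI library was more than 2 times isotype. Phf11b stood at 222, 245, 233 and 83.3 CPM against 40.3, with ICI 4 apart from the rest. Ifit3 stood at 26.4, 67.3, 35.5 and 19.8 CPM against 7.55, and Gbp2 at 83.0, 184, 166 and 284 against 47.2. Oas3 stood at 11.3, 14.0, 7.10 and 27.8 CPM against 1.89, which rests on 3 isotype UMIs. Irf9, the DNA-binding part of the type I complex, stood at 126, 101, 92.3 and 79.4 CPM against 35.3. Not every gene followed. Isg15 stood at 164, 72.9, 80.9 and 492 CPM against 159, Irf7 at 126, 102, 61.1 and 190.5 against 72.4, and Irf1 at 185, 474, 351 and 407 against 193, each with ICI libraries on both sides of isotype. Slfn2, at 279, 205, 231 and 740.2 CPM against 524, and Ifi27l2a, at 615, 422, 525 and 1049.7 against 952, were lower than isotype in 3 of 4 ICI libraries.

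The isotype cells of cluster 7 carried more T-cell and parathyroid RNA than any ICI library. Summed T-cell markers were 1767, 171, 124 and 2082 CPM in ICI 1 to 4 and 3853 in isotype, macrophage markers were 23200, 29397, 24591 and 13271 against 16060, and the parathyroid hormone gene Pth was 0, 125, 49.7 and 63.5 against 2877. Neutrophil markers were 2204, 37.9, 842 and 45.6 CPM against 128, and their part was not tested. Of the 129 isotype cells, 91 had at least 2 UMIs of T-cell and 2 of myeloid marker genes, against 18, 7, 6 and 21 ICI cells. Leaving these cells out kept 86, 174, 156 and 24 ICI cells and 38 isotype cells. The median fold change was then 0.37, with 29 of 43 positive (52% of all genes), 16 above isotype in every ICI library (25% of all genes) and 4 below. Bst2 then stood at 571, 469, 428 and 423 CPM against 230.2 (log2 fold change 0.90), above isotype in every library. Oasl2 stood at 106, 147, 108 and 91.9 CPM against 61.1 (0.77), and Gbp3 had a log2 fold change of 1.03, Igtp of 1.33 and Irf9 of 1.31. The values of Gbp3, Igtp and Irf9 rest on 8, 6 and 8 isotype UMIs. Of the 43 genes 13 changed sign: 12 turned negative, among them Isg15 (-0.47), Irf7 (-0.37), Oasl1 (-0.92) and Ifit2 (-0.62). Ifit1 turned positive (2.23, SE 2.00), which rests on 1 isotype UMI.

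Of 42 genes tested in both clusters, 16 were below isotype in every ICI library in cluster 0 and above it in every ICI library in cluster 7, among them Bst2, Oasl2, Igtp, Irgm1 and Irf9, against 1.5% of the 7130 genes tested in both. Without cells holding both T-cell and myeloid UMIs, 8 of the 16 stayed above isotype in every ICI library of cluster 7, and Gbp2 and Samhd1 were above it in 2 of 4. The ICI effect in cluster 7 was tested against that in effector T-like cluster 1, with the library as a block. The difference was positive for 37 of 44 genes (45% of all genes), with a median of 1.36 on the log2 scale, against -0.12 for all genes. None passed the edgeR test (0.0099% of all genes did, smallest adjusted p 0.703), and 14 had an unadjusted p under 0.05 (5.58% of all genes). The largest differences were those of Oasl2 (4.81), Oasl1 (4.37) and Oas3 (3.78). Oasl2 rests on 3 isotype UMIs in cluster 1, and Oas3 on 3 in cluster 7. Phf11b (3.11, SE 0.82), Usp18 (2.97), Xaf1 (2.11) and Irf9 (2.03) had the smallest unadjusted p values by edgeR. Without cells holding both T-cell and myeloid UMIs the median difference was 0.47, with 33 positive.

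**Figure D5:**
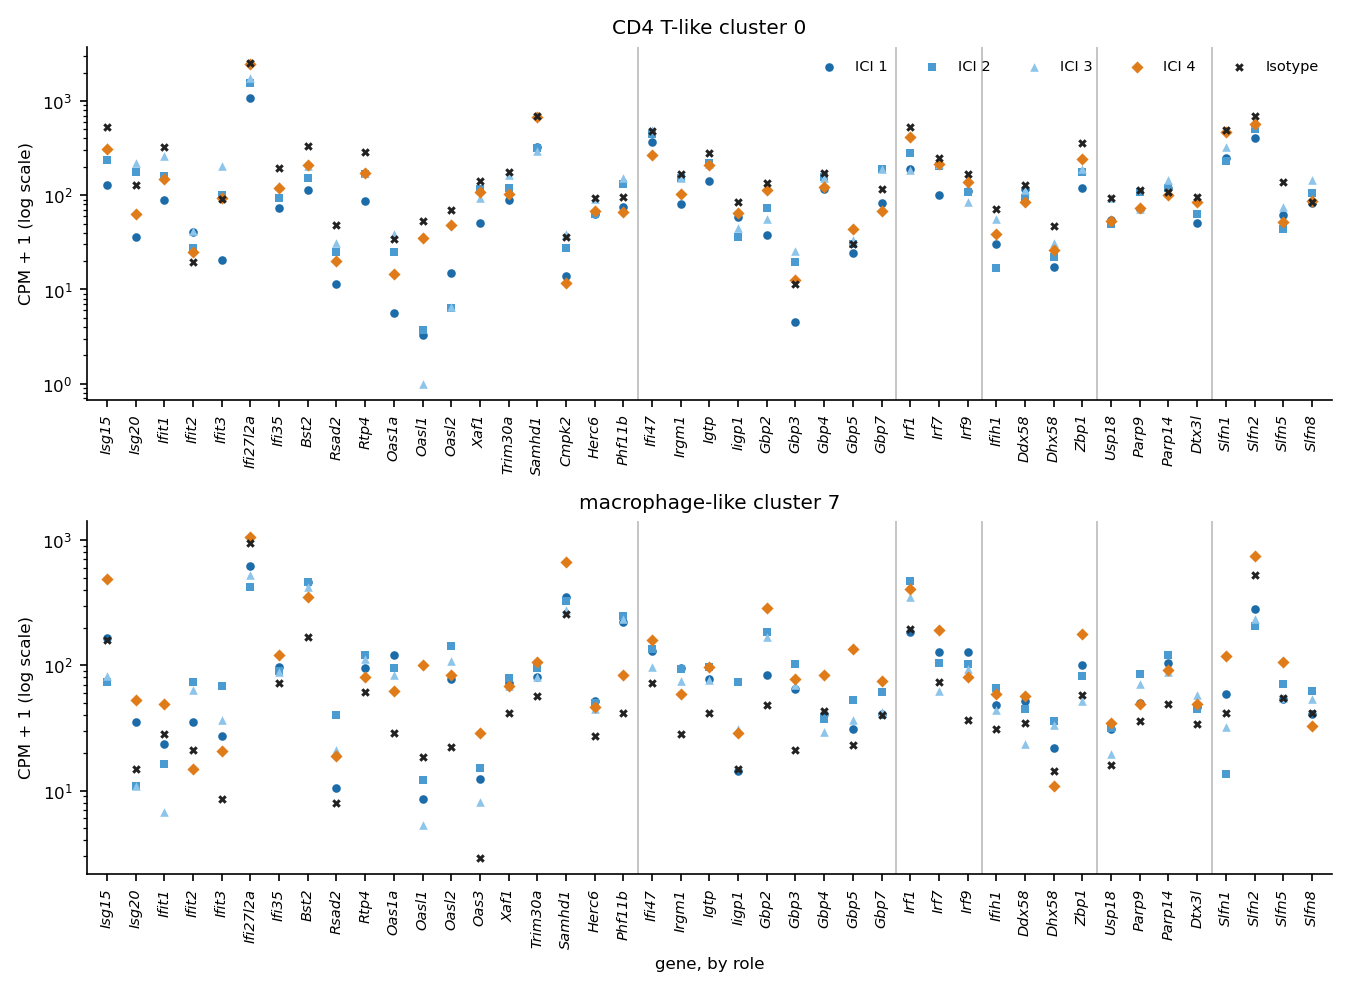
Levels of the 43 interferon-stimulated genes tested in cluster 0 (top) and in cluster 7 (bottom), as CPM plus 1 on a log axis, 1 point per library, with genes grouped by role between the grey lines. Isotype is often the highest point in the top panel and the lowest in the bottom one. Bst2 is 114 to 208 CPM in ICI against 333 in isotype in cluster 0, and 351 to 461 against 168 in cluster 7.

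In the other T-like clusters several type I genes, Isg15 among them, were lower in ICI than in isotype, and the GTPases varied. In effector T-like cluster 1, 17 of 43 genes had all 4 ICI libraries below isotype (19% of all genes) and 7 had all above (37%), 17 fold changes were positive (56.4% of all genes), and 9 of the 10 type I core genes tested were below in every library. Ifit1 stood there at 25.5, 62.4, 37.4 and 53.3 CPM against 123, and Usp18 at 6.70, 11.3, 11.8 and 9.91 against 37.6. Regulatory T-like cluster 4 held 160, 48, 45 and 569 ICI cells and 28 isotype cells. In it Isg15 stood at 68.4, 73.3, 7.62 and 180.2 CPM against 432 (log2 fold change -2.31, SE 0.80). Usp18 stood at 37.3, 9.17, 15.2 and 28.0 against 115, and Oas1a at 15.5, 55.0, 15.2 and 37.8 against 93.6. For Isg15, Usp18 and Oas1a the values rest on 1, 2 and 2 UMIs in ICI 3 and on 60, 16 and 13 in isotype. These 3 genes lay below isotype throughout, whereas of the 35 tested 8 did so (18.1% of all genes), 5 lay above throughout (32.1%), 16 had a positive fold change (54.9%) and the median was -0.06. Dissociation and stress genes in cluster 4 were 3421, 6444, 5409 and 8931 CPM against 14170.5, and their part was not tested. In cluster 3, Isg15 stood at 122, 113, 156 and 179 CPM against 444, and Igtp at 132, 37.5, 120.2 and 135 against 224, whereas Ifit3 had a log2 fold change of 0.82 with 2 of 4 ICI libraries above isotype. There 10 of 32 genes were below isotype throughout (19.3% of all genes), 2 above (18.6%) and 12 positive (52.7%). In thymocyte-like cluster 2 the counts were 5 below (14.9%), 4 above (12.5%) and 16 positive (49.3%) of 31. The core genes summed to more in isotype than in any ICI library in clusters 0, 1, 2, 3, 4, 5, 6, 10 and 12.

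In the innate-like clusters more GTPases lay above isotype than below it, and none passed the test. In gamma-delta T-like cluster 6, Ifi47 stood at 269, 211, 191 and 135 CPM against 46 (log2 fold change 1.91, SE 0.41, edgeR adjusted p = 0.681), with every ICI library above isotype. In the same cells Isg15 stood at 22.9, 22.6, 6.88 and 138 CPM against 233, and Slfn5 at 22.9, 19.9, 12.8 and 64.2 against 129.9, with every ICI library below. Of the 36 genes tested, 13 lay above isotype throughout (29.7% of all genes), 7 below (19.3%) and 18 were positive (50.8%). Of the 9 GTPases 5 lay above throughout, and Gbp5 (-0.60), Gbp3 (-0.60), Iigp1 (-0.56) and Gbp2 (-0.53) had negative fold changes with 3 of 4 ICI libraries below isotype. Markers of other cells also differed in cluster 6: fibroblast genes were 0, 0, 0 and 3697 CPM in ICI 1 to 4 against 6218, macrophage genes 80.2, 26.6, 20.6 and 686 against 1313, and endothelial genes 51.5, 33.2, 26.5 and 73.4 against 991. Gamma-delta T-cell markers were 8214, 8952, 8378 and 2078 CPM against 2631. The part of these markers was not tested. In natural killer-like cluster 8, all 8 GTPases tested had a positive fold change, and their sum was 801, 882, 740.3 and 401 CPM against 313. Over all 34 genes tested there, 14 were above isotype throughout (24% of all genes), 2 below (12.3%) and 26 positive (53.2%). In type 2 innate lymphoid-like cluster 10, all 6 GTPases tested had a positive fold change with a median of 1.45, and of all 26 genes 9 lay above isotype throughout (28.2% of all genes), 3 below (7.01%) and 17 were positive (54.1%). Gbp2 stood there at 39.7, 98.9, 70.3 and 28.0 CPM against 15.4, and the nuclease Isg20 at 10.8, 4.12, 9.37 and 16.0 against 43.6, on opposite sides of isotype in every library. Both rest on few UMIs, Gbp2 on 11, 24, 15 and 7 against 6 and Isg20 on 3, 1, 2 and 4 against 17. In cycling-like cluster 5, with 3 ICI libraries, Ifit1 stood at 2.00, 0 and 3.24 CPM in ICI 1, 3 and 4 against 16.9, and of 37 genes 2 lay above isotype throughout (23.5% of all genes), 5 below (16.7%) and 22 were positive (51.3%). Clusters 11 and 12 had 2 ICI libraries each. In cluster 11, 7 of 27 genes lay above (28.9%), 5 below (28.4%) and 17 were positive (45.9%). In cluster 12, 5 of 32 lay above (32.6%), 17 below (34.4%) and 11 were positive (51.3%), and Ifit1 stood at 0 and 16.9 CPM against 47.4.

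In the 12 clusters together, 0 of 419 tests of these genes passed the edgeR threshold, against 0.0615% of all tests. The share of all genes past it was 0.0107% in cluster 1, 0.0341% in cluster 2, 0.144% in cluster 4, 0.0316% in cluster 5, 0.14% in cluster 11, 0.433% in cluster 12 and 0 in the other 6. Isg15 had all of its ICI libraries below isotype in 8 of the 12 clusters. Leaving out ICI 4 changed these counts: 32 of 332 tests then passed (5.36% of all tests), 13 lower and 19 higher in ICI. They fell in clusters 3 to 8 and 10, where the share of all genes past the threshold differed. That share was 2.09% in cluster 3, 1.74% in cluster 4 and 2.73% in cluster 5. It was 17.3% in cluster 6, 7.35% in cluster 7, 5.02% in cluster 8 and 8.89% in cluster 10. Isg15 was lower in 6 clusters, 3, 4, 5, 6, 8 and 10, and Ifi47 and Irgm1 were each higher in 3. ICI 1 to 3 are also the library set that differs from isotype in Xist and globin UMIs, so in this comparison set and treatment cannot be told apart.

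The rest of the pathway gave the following values over all cells. Interferon gamma itself (Ifng) stood at 26.6, 110.4, 109 and 16.1 CPM against 12.9, above isotype in every ICI library (log2 fold change 2.23, SE 1.32). Of 15 receptor and signalling genes tested, 0 passed the test in either direction and 10 had a positive fold change (51.1% of all genes). Socs1, the feedback inhibitor of JAK signalling, stood at 98.9, 88.9, 95.0 and 267 CPM against 266, and Ifngr1 at 368, 586, 592 and 747 against 596. Of 15 genes that induce interferon, 0 passed and 12 were positive, with Tmem173 (STING) at 111, 109, 114 and 38.9 CPM against 27.2. Of 66 other interferon-inducible genes, 0 passed, 48 were positive (51.1% of all genes) and 33 were above isotype in every ICI library (27.3%). Ly6a (Sca-1) stood at 846, 1638, 1734 and 819 CPM against 317, Shisa5 at 1104, 1048, 1015 and 713 against 459, and Ms4a4b at 916, 1122, 1071 and 459 against 195. Ly6e went the other way, at 826, 436, 462 and 1381 CPM against 1460.4.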

How the data were processed

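Single-cell 5′ RNA libraries of sorted thyroid CD45+ cells were analysed. Cell Ranger, Seurat and build mm10 are named in the submitters' processing notes; versions are not given in the sources used here. The authors deposited whole-number UMI counts per gene and cell, with a cell table that gives library and cluster per the file headers. The authors' mitochondrial percent and cell cycle score of each cell, per the file headers, were not used. The members and all lists were chosen with earlier results of these data known, and cluster names were given after the markers were seen.

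UMI counts were added up per library, for all cells together and within each cluster with at least 20 cells, and tested with edgeR 4.0.16 (quasi-likelihood, TMM, filterByExpr with a minimum count of 10, Benjamini-Hochberg over all genes tested, threshold 0.05) in R 4.3.3 with limma 3.58.1. Libraries with fewer cells in a cluster were left out of its fit. DESeq2 1.42.0, other filters and cell sets were alternatives. On simulated counts, 4-fold changes were recovered for 24% of genes in cluster 0 and 16% in cluster 7, and 16-fold changes for 94% and 81%. Genes given in every library were the 12 most abundant and 4 most changed over all cells, the 3 most changed and 2 most abundant in the main clusters, and Isg15, Irf7, Irf1, Bst2, Ifit3 and Gbp2 throughout; further genes were named after their values were seen. Cell shares used Clopper-Pearson intervals at 95%, and the 4 ICI libraries and 1 isotype library were permuted exactly. Figures were drawn with matplotlib 3.10.9.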

Additional observations from a re-analysis of the deposited data

Results flagged for a closer look

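In all, 101 groups of 4 ICI libraries were checked for 1 library far from the others (gap over range above Dixon's 95% critical value). Of these 11 had one, and in 7 it was ICI 4. About 1 in 20 groups of independent normal values would pass that value. These groups share the same 4 libraries and were partly chosen by fold change, so that rate is no baseline for them. The share over all genes was not computed. Over all cells, Ifi47 was 124 CPM in ICI 4 against 265 to 275 in the others, Slfn8 35.3 against 76.3 to 82.7, and Cmpk2 5.98 against 10.5 to 11.1, each near isotype (115, 32.5 and 7.75 CPM). Ifi35 was 87.9 CPM in ICI 3 against 74.3 to 75.7.

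In CD4 T-like cluster 0, Oasl1 was 33.9 CPM in ICI 4 against 0 to 2.67 in the others, and Irf7 was 98.7 in ICI 1 against 203 to 215. In thymocyte-like cluster 2, Gbp3 was 91.8 CPM in ICI 3 against 0 to 7.02, where ICI 3 had 21 cells. In cluster 3, Igtp was 37.5 CPM in ICI 2 against 120.2 to 135. In gamma-delta T-like cluster 6, Isg15 was 138 CPM in ICI 4 against 6.88 to 22.9. In macrophage-like cluster 7, Slfn2 was 740.2 CPM in ICI 4 against 205 to 279, and Phf11b 83.3 against 222 to 245.

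For Bst2 and Gbp2 every ICI library was below isotype in cluster 0 and above it in cluster 7. The log2 fold changes differed by 2.38 for Bst2 and 2.93 for Gbp2, and this difference was not tested. Without cells holding both T-cell and myeloid UMIs, Gbp2 in cluster 7 was 103, 196, 119 and 418 CPM in ICI 1 to 4 against 122, above isotype in 2 of 4 libraries, and its log2 fold change was 0.63 rather than 1.93.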

How the results depend on the processing

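No paired analysis was possible because replicate numbers follow accession order and isotype has 1 library. With the library as a block for cluster 7 against cluster 1 the median difference was 1.36, and with no replicate block it was 1.40. Over all cells the median log2 fold change of 0.40 was 0.20 for ICI 4 against isotype alone, 0.20 with the library set term, 0.12 without clusters 2, 5 and 11, and -0.048 with clusters weighted alike. Within clusters the count past the threshold, 0, was 3 by DESeq2, all higher in cluster 7 (0.256% of all genes there). It was 1 with no filter (Isg15 in cluster 4) and 2 with the library set term (Ifi47 and Slfn1 in cluster 6). With at least 50 cells it was 7, all higher in cluster 7, which then lacks ICI 4 (3.18% of all genes there). With 1 library left out it was 0 to 32, 32 being without ICI 4 (5.36% of all tests). For no filter and the set term the share of all genes is not given, so those counts have no such value beside them. The share of positive fold changes, 52.5%, was 46.9% for ICI 4 alone, 57.7% with at least 10 cells and 47.5% with the set term. Without cells holding T-cell and myeloid UMIs the cluster 7 median of 0.85 was 0.37 and the difference from cluster 1 was 0.47; the set term gave 1.10 for cluster 7. The cluster 0 median was -0.56 to -0.69 with 1 library left out.

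Alternative fold changes came from the same counts and the same isotype library, for gene results partly chosen by large fold change. A kept direction is therefore no independent support, and the share over all genes was not computed. Of 776 such fold changes for 57 gene results, 762 kept their direction. Those that reversed were Phf11b in cluster 5 (-0.79 for ICI 4 alone, -0.89 with the set term), Slfn5 in cluster 8 (-0.11, set term), Oasl1 over all cells (0.28 and 0.27 in the same 2 settings), Ifit3 in cluster 0 (-0.41 without ICI 3, -0.10 with ICI 1 to 3 summed, -0.037 without the highest cell), Isg15 in cluster 7 (-0.61 to 0.66 with 1 library left out, the lowest without ICI 4, which is also the fit with at least 50 cells, and -0.47 without T and myeloid cells), Irf7 in cluster 7 (-0.37 in the last setting), and Bst2 over all cells (-0.017; -0.069 to 0.034 with 1 library left out, 0.0048 thinned); the causes were not tested. The set term was chosen after the data were seen. On simulated counts over all cells, 4-fold changes were recovered for 7% of genes.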

Other observations

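Bst2 was far higher in a small group of cells outside the compared clusters than in any of the 14 clusters described. Cluster 15 held 116 cells, of which 23 had a UMI of Siglech, a surface lectin of plasmacytoid dendritic cells. Bst2, which is also known as a surface marker of those cells in mice, was 3474 CPM in the 23 cells, 309 in the 93 without Siglech and 159 in cells of all other clusters. Irf7 was 229.8 CPM in the cells with Siglech, against 69.2 and 107, and Trim30a was 210.1, against 66.7 and 66.8. Irf1 was 341 against 93.6 and 206, and Ifi27l2a 1793 against 232 and 991. The pattern did not extend to all type I core genes. The cells with Siglech held 0 UMIs of Ifit1, Ifit3, Rsad2, Rtp4, Oas3, Oasl1, Oasl2 and Cmpk2, which allows up to 19.7 CPM of each. Ifit1, Ifit3 and Rtp4 were above that bound in cells of other clusters, at 45.96, 25.7 and 75.01 CPM. Rsad2, Oas3, Oasl1, Oasl2 and Cmpk2 were below it there, at 7.48 to 16.2 CPM. For these genes 0 UMIs cannot show a lower level than in those cells. Isg15 was 144 CPM, against 297 and 142. Ifi44 was 13.1 CPM, against 16.3 and 2.24, and rests on 2 UMIs. Tcf4 was seen in 56.0% of cluster 15 cells and 7.50% of other cells, and Ly6d in 77.6% and 9.47%. These shares were not levelled for depth, and cluster 15 had a median of 9561.5 UMIs per cell. They cover all 116 cells, 82 of them from ICI 4, with and without Siglech. All 10 plasmacytoid dendritic cell markers were at 1.5-fold or more in the cluster, but none was among its 10 leading genes. The T-cell receptor genes Tcrg-C1, Tcrg-C2 and Tcrg-C4 were among those 10. The cells were split by a gene of the same data, so these levels are a description with no test.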
